A study of Mus musculus with 10 samples.

Results

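The hexokinase family was followed through 7 probe sets, out of 45265 on the 10 Affymetrix arrays of this study. They were taken as all probe sets of the array types MOE430A and MOE430B that the platform annotation gives to exactly 1 of Hkdc1, Hk1, Hk2 and Hk3. MOE430A carries 4 of them, 1 for Hkdc1, 1 for Hk2 and 2 for Hk1. MOE430B carries 3, of which 2 are for Hk3 and 1 for Hkdc1. Another probe set names Hk1 together with other genes and was left out. The family was picked because Hkdc1 had been seen to be higher in anterior fragments on MOE430A, so the values of Hkdc1 on that array type describe the choice and carry no test here. Hk1, Hk2 and Hk3 were included by name, whatever their values.

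The arrays measured amplified RNA of mouse embryos at embryonic day 5.5. All samples came from the same cross, labelled B6SJLF1×CerlP-GFP, in which green fluorescence marks the anterior visceral endoderm, and none had been treated. Ad is the anterior distal fragment, holding the fluorescent endoderm with its underlying epiblast. Pp is a piece of proximal visceral endoderm and epiblast from the side facing away from it, and the third kind of sample is the whole embryo. Per array type there were 2 arrays of Ad, 2 of Pp and 1 of the whole embryo, numbered 1 and 2 on MOE430A and 3 and 4 on MOE430B for the fragments. The labels do not say whether replicates came from separate embryos or how many fragments went into one, so the spread between them may be technical. Both fragments mix endoderm and epiblast, so more RNA per cell and more cells of a type cannot be told apart.

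Hexokinases add a phosphate to glucose as it enters the cell, which traps it there and commits it to glycolysis, the pentose phosphate pathway, glycogen or amino sugar synthesis. Hk1 is the broadly expressed housekeeping enzyme. Hk2 is the inducible form of muscle, fat and fast-growing cells, and both it and Hk1 can dock on the outer mitochondrial membrane. Hk3 is best known from white blood cells. Hkdc1, for hexokinase domain containing 1, is the least studied member and is known from gut, kidney and liver. The visceral endoderm is the absorptive layer that surrounds the epiblast and passes nutrients to it.

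The labelled tissues were checked against marker lists, on the summed signal of all probe sets of a list. On MOE430A the anterior visceral endoderm list (13 genes) summed to 53382 and 46748 in the Ad arrays, against 24006 and 23761 in the Pp arrays and 28556 in the whole embryo. The decidua list (18 genes of the maternal tissue around the embryo) was 97160 for the whole embryo and between 22604 and 24628 for the fragments. The extraembryonic ectoderm list (12 genes) summed to 21425 on the second Pp array and 27693 for the whole embryo, against 11906 to 12620 in the other 3 fragments. The general visceral endoderm list (18 genes with a probe set) summed to 207750 and 181677 in Ad, 156771 and 195818 in Pp and 151138 for the whole embryo, with the fragments overlapping. The epiblast list (14 genes) lay between 67081 and 73512 in the fragments against 51918 for the whole embryo. Of its 12 genes above the filter, 7 passed in limma as higher in the fragments, against 4.6% of all probe sets tested on MOE430A. Every comparison with the whole embryo below therefore sets the fragments against a sample with a larger decidual and a smaller epiblast signal. On MOE430A the whole-embryo sum for extraembryonic ectoderm was also above that of every fragment array. The part of each of these tissues in the results was not tested.

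Hkdc1 was the member chosen because it was higher in the anterior fragments on MOE430A. Its MOE430A probe set (1425900_at) read 3498 and 3323 in the Ad arrays, 1200 and 1236 in the Pp arrays and 1256 in the whole embryo, in the arbitrary units of the deposited signal. The 2 Ad arrays stood together far above the other 3, which lay within a narrow band. Ad was clear of Pp on both arrays, as for 16.2% of all probe sets tested on MOE430A, a share that says nothing about a gene chosen on this difference. The Ad mean was 3411 ± 124 (SD, n = 2) and the Pp mean 1218 ± 26.0 (SD, n = 2), a signal ratio of 2.80. On the log2 scale after addition of a pseudocount, which draws folds towards 1, the difference was 1.25, or 2.38-fold. At or below it lay 99.96% of the probe sets tested, a rank that is tied to the choice and is no test. Over 14 other ways of processing the difference lay between 1.15 and 1.40.

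The whole embryo contains the tissue that Ad is cut from, and its Hkdc1 signal was close to that of Pp. The ratio to the whole-embryo signal was 2.72 for the Ad mean and 0.970 for the Pp mean. On the log2 scale Ad stood 1.33 above the whole embryo and Pp 0.08 above it. These values share the arrays that led to the choice of Hkdc1 and are given without a test.

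The other Hkdc1 probe set (1459421_at), on MOE430B, gave no measurement that could stand beside this. It read 5.38 and 10.2 in the Ad arrays, 7 and 4.97 in the Pp arrays and 10.7 in the whole embryo. The groups overlapped, and all 5 values lay under 37.2, the signal that a probe set needed on this array type to enter the tests. Replicates 3 and 4 thus neither repeat the difference in Hkdc1 nor go against it.

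**Figure D1:**
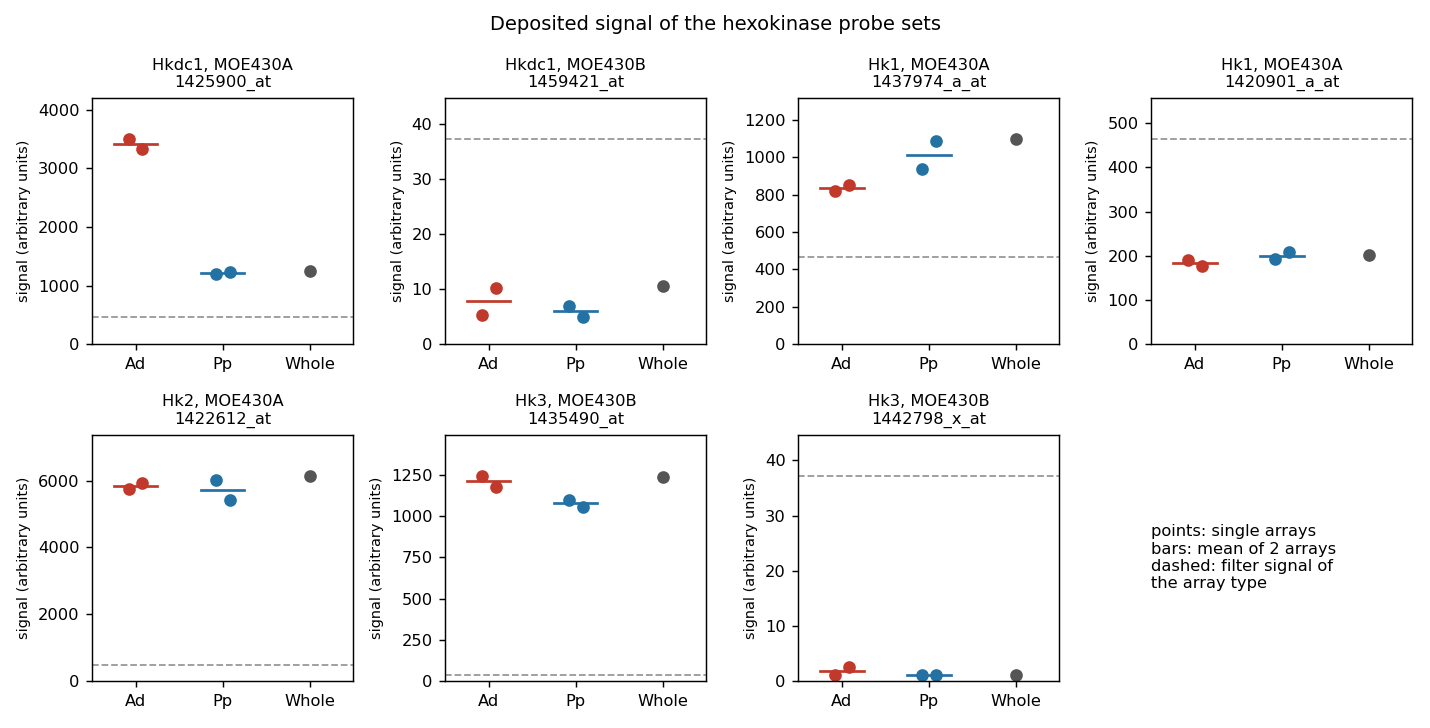
Deposited signal (vertical axis, arbitrary units, from 0) of the 7 hexokinase probe sets in Ad, Pp and the whole embryo; points are single arrays, bars the mean of 2 arrays, and the dashed line the filter signal of the array type (464 on MOE430A, 37.2 on MOE430B). Hkdc1 on MOE430A is near 3411 in Ad and near 1218 in Pp; Hk2 and the brighter Hk1 and Hk3 probe sets differ far less, and 3 probe sets lie below the line.

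Of the 7 probe sets, 4 passed the filter on low values, 1 for each gene. Among the 3 that were tested between Ad and Pp, those of Hk1, Hk2 and Hk3, 0 passed limma's test at an adjusted p of 0.05. In the same comparison 0.169% of all probe sets tested passed on MOE430A and 0.111% on MOE430B. At an unadjusted p under 0.05 the count was 1 of 3 (Hk1), against 11.7% of all probe sets on MOE430A and 10.4% on MOE430B.

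Hk1 leaned towards Pp. Its brighter probe set (1437974_a_at) read 822 and 851 in the Ad arrays, 936 and 1088 in the Pp arrays and 1098 in the whole embryo. Both Ad arrays lay below both Pp arrays, as they did for 29.1% of all probe sets tested on MOE430A. The log2 difference Ad minus Pp was -0.28 (95% interval -0.49 to -0.07; unadjusted p = 0.0171, adjusted p = 0.348, limma), which does not pass. The log2 difference was -0.38 without Pp replicate 1 and -0.19 without Pp replicate 2, each with a single Pp array left. Pp replicate 2, with the higher Hk1 signal, also had the larger extraembryonic ectoderm sum (21425, against 12620 on Pp replicate 1). The part of that tissue in the Hk1 difference was not tested.

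The other Hk1 probe set (1420901_a_at) read 191 and 177 in Ad, 192 and 208 in Pp and 203 in the whole embryo. All 5 values lay under the filter signal of 464, so it was not tested. With no filter its log2 difference was -0.09 (adjusted p = 0.639).

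Hk2 was nearly level across the samples. Its probe set (1422612_at) read 5749 and 5921 in Ad, 6019 and 5414 in Pp and 6145 in the whole embryo. The Pp arrays lay on either side of the Ad arrays. The log2 difference Ad minus Pp was -0.04 (95% interval -0.23 to 0.15; adjusted p = 0.859), and it turned to 0.03 with no centring. The interval allows Ad to be lower by up to 0.23 or higher by up to 0.15 on this scale.

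Hk3 differed little. Its MOE430B probe set above the filter (1435490_at) read 1246 and 1176 in Ad, 1100 and 1058 in Pp and 1236 in the whole embryo. Both Ad arrays lay above both Pp arrays in deposited signal, but the groups overlapped once each array was centred, whereas 19.3% of the probe sets tested on MOE430B then had both Ad arrays higher. The log2 difference was 0.09 (95% interval -0.24 to 0.42; adjusted p = 0.852). The other Hk3 probe set (1442798_x_at) read 2.5 in Ad replicate 4 and 1 on each of the other arrays, the value that 5.90% of the entries on MOE430B hold.

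Because Hk3 is a gene of white blood cells, leukocyte markers were read beside it. On MOE430B, where Hk3 was measured, the 3 leukocyte genes with a probe set summed to 291 and 269 in Ad, 311 and 271 in Pp and 270 in the whole embryo, and 1 of them (Laptm5) passed the filter. On MOE430A all 16 had a probe set and 7 passed the filter. Their sums there were 12160 and 11531 in Ad, 11854 and 11527 in Pp and 13865 in the whole embryo. Of the 7, 1 (Csf1r) was lower in the fragments than in the whole embryo (log2 difference -0.34, adjusted p = 0.0458, limma), against 5.19% of all probe sets tested there. The part of such cells in the Hk3 signal was not tested.

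Against the whole embryo, none of the 3 tested members passed. The log2 difference of the 4 fragments minus the whole embryo was -0.12 for Hk1 (95% interval -0.36 to 0.11; adjusted p = 0.449) and -0.01 for Hk2 (-0.22 to 0.20; adjusted p = 0.965). For Hk3 it was -0.12 (-0.49 to 0.25; adjusted p = 0.755). In this comparison 9.78% of all probe sets tested passed on MOE430A (4.6% higher and 5.19% lower in the fragments) and 2.21% on MOE430B (0.407% higher and 1.81% lower). The single whole-embryo array of each type is assumed to vary like the fragments. On MOE430A the split into 624 higher and 704 lower in the fragments became 338 and 966 with no centring, and 353 and 797 under cyclic loess.

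**Figure D2:**
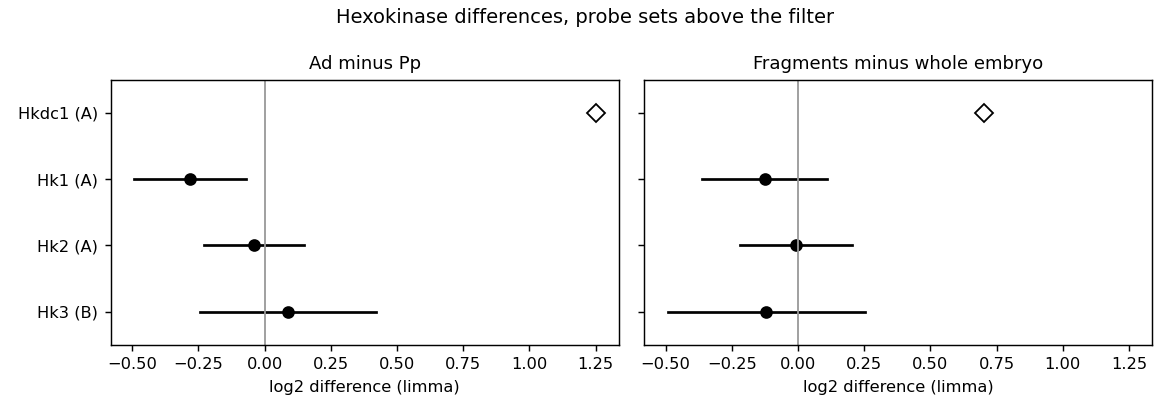
Log2 differences from limma (horizontal axis) of the 4 hexokinase probe sets above the filter, for Ad minus Pp and for fragments minus whole embryo; A and B name the array type. Bars are 95% intervals for the tested genes, of which only Hk1 in Ad minus Pp lies clear of 0 before adjustment; the open diamond is Hkdc1 (1.25 and 0.70), which was chosen on these arrays and has no interval.

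Hkdc1 and Hk1 are neighbours on mouse chromosome 10 in the RefSeq gene order, where the transcript Hk1os lies within the span of Hk1, and none of the measured genes on either side passed between Ad and Pp. Tacr2, a tachykinin receptor gene beside Hk1, read 892 and 765 in Ad and 744 and 765 in Pp (log2 difference 0.03, adjusted p = 0.887). Tspan15, a tetraspanin gene beyond it, read 676 and 665 against 768 and 621 (log2 difference -0.10, adjusted p = 0.680). Supv3l1, a mitochondrial RNA helicase gene on the far side of Hkdc1, had log2 differences of -0.07 and 0.06 by its 2 probe sets (adjusted p = 0.703 and 0.760). The transcript 4930507D05Rik had 2 probe sets, which lay below the filter, between 215 and 377 on the 5 arrays.

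The upstream sequences of Hkdc1 and Hk2 are shown because these members stood at the far ends in how much they differed between fragments. Each is the stretch of 250 bases before the start used in a RefSeq promoter table of GRCm38.p6, written 5′ to 3′ on the gene's own strand, which is the minus strand for both. That of Hkdc1 is chr10:62422458-62422707 and that of Hk2 is chr6:82774455-82774704. The Hk2 window ends where the RefSeq span of the gene begins. The Hkdc1 window lies inside the RefSeq span of Hkdc1, which reaches to 62423711, and it overlaps the noncoding gene Gm30322, so transcripts of Hkdc1 may also start further upstream. Capitals mark matches, on either strand, to 8 motifs that were searched. These were TAATCC for Otx factors, TGTTTA for forkhead factors, TAATTA for homeodomain factors, AGATAA for the zinc finger factors of endoderm, ACGTG as the core of the hypoxia element, GGGCGG as the GC box, CCAAT as the box of that name and TATAAA as the TATA box.
Hkdc1: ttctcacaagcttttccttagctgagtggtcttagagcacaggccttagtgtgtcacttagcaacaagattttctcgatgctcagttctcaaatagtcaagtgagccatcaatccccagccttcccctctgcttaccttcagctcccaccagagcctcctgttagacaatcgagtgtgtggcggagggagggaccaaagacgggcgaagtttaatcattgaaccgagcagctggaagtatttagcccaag
Hk2: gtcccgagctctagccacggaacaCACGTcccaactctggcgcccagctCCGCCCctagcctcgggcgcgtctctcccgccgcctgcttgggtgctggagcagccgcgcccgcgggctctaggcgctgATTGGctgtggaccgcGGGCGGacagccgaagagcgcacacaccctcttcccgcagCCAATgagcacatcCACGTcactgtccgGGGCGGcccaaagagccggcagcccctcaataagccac

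The Hkdc1 window held 0 matches, 6 CpG dinucleotides and 49.6% G and C. The Hk2 window held 7 matches, namely 3 to the GC box, 2 to the CCAAT box and 2 to the hypoxia core, with 25 CpG and 69.6% G and C. No match overlaps another. Over 32851 windows of this length the median was 6 CpG. Of these windows, 32.7% held a GC box, 33.8% a CCAAT box and 16.6% the hypoxia core. The shares were 6.25% for TAATCC, 12.0% for TGTTTA, 4.84% for TAATTA, 9.99% for AGATAA and 12.4% for TATAAA. The window of Hk3 held 1 match, to the hypoxia core, and 6 CpG. Those of the 2 Hk1 starts held 0 matches each, as that of Hkdc1 did, with 1 and 14 CpG. A match is a string of letters and not a shown binding site.

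The genes whose values over the 5 MOE430A arrays came closest to those of Hkdc1 were Lhx1, Foxa2, Pilrb1, Chst15 and Shisa2. Closeness was the Euclidean distance between log2 values after each probe set's own mean was subtracted, over 13574 other probe sets, with 1 probe set per gene. The distance was 0.143 for Lhx1, 0.205 for Foxa2, 0.208 for Pilrb1, 0.215 for Chst15 and 0.233 for Shisa2. Lhx1 and Foxa2 encode transcription factors and Shisa2 a membrane protein that holds back receptors of Wnt and Fgf, and all 3 were on the anterior visceral endoderm list. Lhx1 had a mean signal of 2302 in Ad, 716 in Pp and 776 in the whole embryo, and Foxa2 of 2125, 794 and 782. Chst15, a sulfotransferase gene, had 2269, 897 and 934. In all 5 the whole embryo lay near Pp, as it did for Hkdc1. The search by distance over these same arrays selects for that likeness. The 5 points share their arrays, and the likeness is a description.

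Hk1 and Hk2 had other company, over narrower ranges. Nearest to Hk1 were Aamp (distance 0.0573), Ttc19, Pecr, Slc39a7 and Slc12a7 (0.0894), each lower in Ad than in Pp by 0.22 to 0.28 on the log2 scale. Nearest to Hk2 were Pde9a (0.0220), Dcaf1, Canx, Zranb1 and Nploc4 (0.0275), with differences between -0.06 and -0.02. The shared direction and size come with the search, which selects for likeness. With differences this small many probe sets are about equally near.

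**Figure D3:**
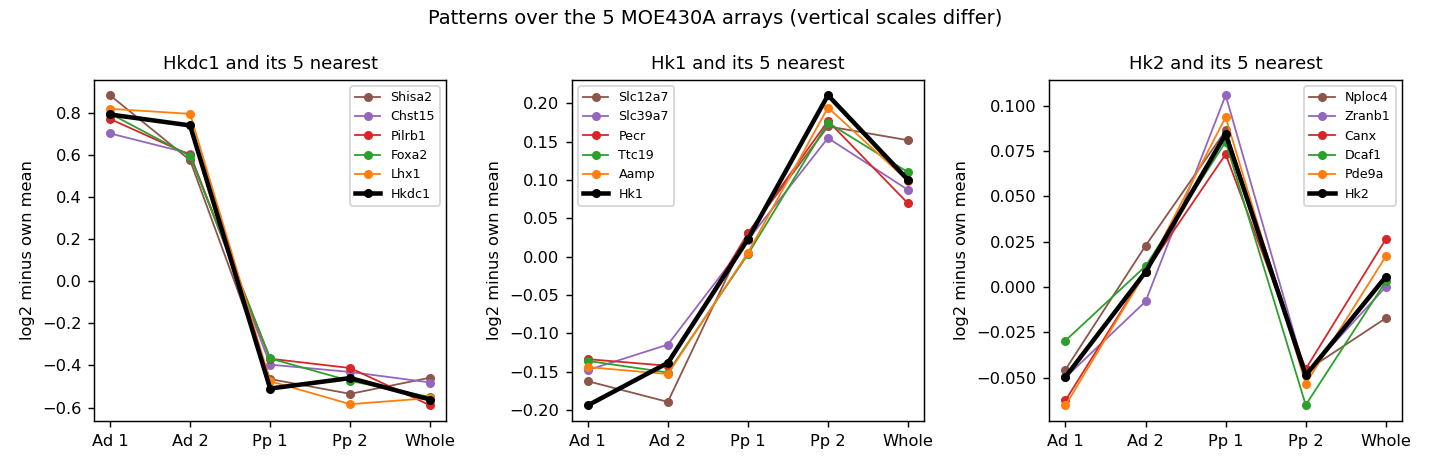
Log2 value minus the probe set's own mean (vertical axis, with a scale for each panel) on the 5 MOE430A arrays, for Hkdc1, Hk1 and Hk2 (black) and the 5 genes nearest to each (colours). Hkdc1 and its neighbours in pattern are high on both Ad arrays and low on the Pp and whole-embryo arrays; the Hk1 and Hk2 patterns span a far smaller range.

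The steps around the hexokinase reaction were read from lists of pathway genes, taking for each gene its brightest probe set above the filter. Between Ad and Pp on MOE430A, 0 genes passed in limma among 7 other sugar kinases and phosphosugar mutases, 8 sugar transporters, 14 glycolytic enzymes, 13 enzymes on other routes from glucose 6-phosphate and 8 mitochondrial or signalling partners of hexokinase. On MOE430B 0 passed among 4, 1, 5, 3 and 2 such genes, and the medians of the lists lay between -0.13 and 0.23. Of all probe sets tested between Ad and Pp, 0.169% passed on MOE430A and 0.111% on MOE430B. With shares this low, 0 calls in short lists do not show that the pathway is alike in both fragments.

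All 14 glycolytic genes measured on MOE430A had a log2 difference below 0, with a median of -0.10 and a range of -0.41 to -0.02. Of all probe sets tested there, 58.9% were below 0, with a median of -0.03. With no centring 10 of the 14 were below 0, against 34.2% of all probe sets. Under quantile normalization it was 13, against 54.3%, and under cyclic loess 13, against 50.9%. The phosphofructokinase gene Pfkl, whose enzyme catalyses the committed step of glycolysis, read 7550 and 6770 in Ad and 8314 and 9173 in Pp (log2 difference -0.35, adjusted p = 0.298). The lactate dehydrogenase gene Ldha was level, at 20595 and 21053 in Ad and 20607 and 20827 in Pp (log2 difference -0.06, adjusted p = 0.739).

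The widest difference in these lists, after Hkdc1, was in a transporter. Slc2a2, which encodes the low-affinity glucose transporter GLUT2 and was picked out after its values were seen, read 273 and 260 in Ad, 625 and 1077 in Pp and 580 in the whole embryo. The Ad arrays lay below the filter signal and the Pp arrays above it. The probe set thus entered the test through its Pp values. The difference did not pass in limma and is given without interval or p-value, since the gene was picked on its values. The log2 difference was -1.13, and its size depends on the pseudocount, from -0.89 with the larger one to -1.71 with none. With 1 array left out the log2 difference was -1.14 and -1.12 without Ad replicate 1 or 2. It was -1.44 without Pp replicate 1, where Pp is the higher array alone. That array also had the larger extraembryonic ectoderm sum (21425, against 12620 on Pp replicate 1). The part of that tissue in the Slc2a2 difference was not tested. Without Pp replicate 2 the probe set fell below the filter and gave no value. Its direction was opposite to that of Hkdc1. The high-affinity transporter gene Slc2a1 read 7087 and 7418 in Ad and 5378 and 6116 in Pp (log2 difference 0.26, adjusted p = 0.382), with 0.32 and -0.0017 by its other probe sets.

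Against the whole embryo, 5 genes of these lists passed, all lower in the fragments. On MOE430A they were 2 of the 13 enzymes on other routes from glucose 6-phosphate and 0 of the 7, 8, 14 and 8 genes of the other lists. In that direction 5.19% of all probe sets passed there. On MOE430B they were 1 of 1 transporter, 1 of 5 glycolytic genes and 1 of 3 on other routes, and 0 of 4 and 2 in the rest. In that direction 1.81% of all probe sets passed on MOE430B. The folds given next are those of limma after the pseudocount, not ratios of the signals beside them. Each SD is taken over the 2 Ad and 2 Pp arrays together, and the whole embryo is 1 array. Rpia, an enzyme of the pentose phosphate pathway, had a mean of 1702 ± 74.7 (SD, n = 4) over the fragments against 4397 for the whole embryo (2.26-fold, adjusted p = 0.00116). Gys1, a glycogen synthase, was at 974 ± 36.8 against 1401 (1.28-fold, adjusted p = 0.0414). On MOE430B the transporter gene Slc2a12 was at 386 ± 87.8 against 1171 (3.06-fold, adjusted p = 0.0369), and Pfkfb4, a regulator of phosphofructokinase, at 171 ± 7.45 against 362 (2.06-fold, adjusted p = 0.0244). Gfpt1, which starts amino sugar synthesis, was at 611 ± 49.7 against 1162 (1.90-fold, adjusted p = 0.0486). On that array type the decidua list (8 genes with a probe set) was at 5713 for the whole embryo and between 548 and 665 for the fragments. The extraembryonic ectoderm list (4 genes with a probe set) was at 1543 for the whole embryo there and between 1078 and 1630 for the fragments. On MOE430A both lists were highest in the whole embryo, as given above. The part of either tissue in these results was not tested.

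These calls differ in how far they hold. That of Rpia held under all 14 alternatives. Those of the 3 MOE430B genes ended with no filter (adjusted p = 0.121 for Slc2a12, 0.0653 for Pfkfb4 and 0.124 for Gfpt1) and without either Ad array, where their adjusted p lay between 0.140 and 0.222. Slc2a12 and Gfpt1 also failed under quantile normalization (0.0504 and 0.0638) and with no pseudocount (0.0555 and 0.0700), and Gfpt1 with no centring (0.0570). The call of Gys1 ended without either Ad array (adjusted p = 0.145 and 0.167) and with the replicate block (0.0938). Slc2a12 and Gfpt1 each had another probe set above the filter that did not pass (log2 differences -0.77 and 0.15).

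**Figure D4:**
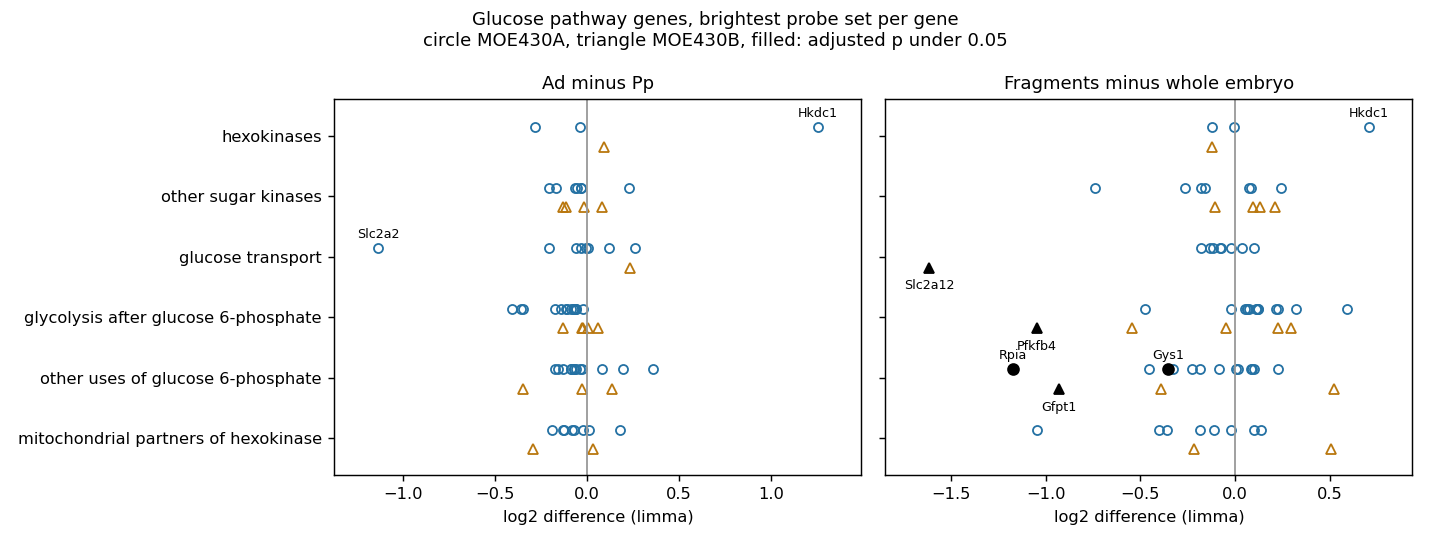
Log2 differences from limma (horizontal axes) for the brightest probe set of each gene in 6 lists, Ad minus Pp on the left and fragments minus whole embryo on the right; circles are MOE430A, triangles MOE430B, and filled symbols have an adjusted p under 0.05. Hkdc1 is drawn open because it was not tested; no gene is filled on the left, and the 5 filled genes on the right all lie below 0.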

How the data were processed

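RNA of 10 samples was hybridised to Affymetrix MOE430A and MOE430B arrays, 5 of each. The deposited table holds intensity values per probe set, not in logs. The submitters' processing notes name MAS5; which version and which scaling target were used is not given in the sources used here. Array medians were 590 to 645 on MOE430A and 56.8 to 61.0 on MOE430B. Precision rests on the small number of arrays.

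The 2 array types were fitted separately (limma 3.58.1, R 4.3.3). After removal of 64 control probe sets from each, log2 was taken of the intensity plus a pseudocount, the 20th percentile of all values (247 and 10.5). The filter kept probe sets with a mean log2 value above the 40th percentile (a signal of 464 and 37.2), which left 13575 of 22690 and 13506 of 22575. Arrays were centred on their median over kept probe sets. Groups Ad, Pp and whole embryo were fitted with lmFit and eBayes (2 residual degrees of freedom). Ad was set against Pp, and both fragments, equally weighted, against the whole-embryo array. The threshold was a two-sided Benjamini-Hochberg adjusted p of 0.05 over all kept probe sets. The fit was tested on simulated data. Alternatives covered centring, normalization, pseudocount, filter, variance trend, replicate pairing and leaving out arrays.

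Gene names are those of the platform annotation, in which 35067 probe sets have 1 gene symbol, 936 several and 9262 none. Upstream sequences were matched by symbol to a RefSeq table of GRCm38.p6 (all 4 members matched), and that assembly was otherwise used only for gene order.

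Named were every hexokinase probe set, the 3 RefSeq genes on each side of Hk1 and Hkdc1, the 5 nearest patterns, and pathway genes that passed, up to 4 each way per list and comparison. Of the pathway genes, Pfkl, Ldha, Slc2a1 and Slc2a2 were named outside this rule and did not pass. The members and lists were chosen with earlier results of these data known, and the motifs after the values had been seen.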

Additional observations from a re-analysis of the deposited data

How the results depend on the processing

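Among the hexokinase probe sets above the filter, that of Hk1 stayed below 0 under all 14 alternatives in both comparisons. That of Hk3 kept its directions under 13. The Hkdc1 probe set stayed above 0 in both comparisons. It was chosen for its high Ad values on these same arrays, so its constant sign is no test. The probe sets tested only with no filter had the other sign in fragments minus whole embryo, at -0.32 for Hkdc1, 0.030 for Hk1 and 0.012 for Hk3 (adjusted p between 0.561 and 0.989, limma). In Ad minus Pp they had the same sign, at 0.083 for Hkdc1, -0.092 for Hk1 and 0.030 for Hk3. Their signals lay below the filter, so no direction can be read from them. Hk2 lay close enough to 0 to change sign. Its Ad minus Pp value became 0.030 with no centring and lay between -0.105 and 0.0281 with 1 array left out, above 0 without Pp replicate 1. Its fragments minus whole embryo value became 0.0059 with no pseudocount and lay between -0.0389 and 0.0273 with 1 array left out, above 0 without Ad replicate 1 (0.0088) or Pp replicate 2. With 1 array left out, Ad minus Pp lay between -0.0442 and 0.109 for Tacr2, below 0 without Ad replicate 1, and between -0.206 and 0.0055 for Tspan15, above 0 without Pp replicate 1. Each gene had 1 probe set above the filter, so averaging probe sets changed nothing.

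Counts of probe sets past the threshold moved more. For Ad minus Pp on MOE430A, 23 became 46 with no centring and between 1 and 811 when 1 array was left out. For fragments minus whole embryo there, 1328 became 865 with the replicate block and between 274 and 3493 with 1 array left out. For Ad minus Pp on MOE430B, 15 became 30 with the larger pseudocount, 2 with no filter, 26 with the filter at the 60th percentile, 30 with an intensity trend and 29 with the replicate block. It lay between 0 and 131 with 1 array left out; the 0 calls of limma, without Ad replicate 3 or 4, came with 664 and 582 probe sets at an unadjusted p under 0.05. For fragments minus whole embryo on MOE430B, 299 became 196 with no filter and between 101 and 1180 with 1 array left out. The cause of these shifts was not tested.

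The labels do not say that equal replicate numbers belong together, and deviations of same-numbered arrays correlated at -0.242 on MOE430A and -0.0392 on MOE430B. With the replicate block 24 probe sets passed between Ad and Pp on MOE430A, and with crossed pairs, an alternative added after seeing the data, 47 passed there and 1834 against the whole embryo. The block changed no call among Hk1, Hk2 and Hk3.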

Other observations

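One probe set of MOE430A (1436822_x_at) is annotated to Hk1 together with 5 other genes, among them the ribosomal protein gene Rpl17 and pseudogenes of it, and entered no count of hexokinases. It read 12217 and 12724 in Ad, 11076 and 11199 in Pp and 11770 in the whole embryo (log2 difference Ad minus Pp 0.09, adjusted p = 0.625, limma). Its direction is opposite to that of the Hk1 probe set above the filter. The annotation does not say which of the 6 genes it reads.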
